A study of Mus musculus with 2 samples.

Results

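Lad1, Penk, Phlda1, Capn3, Ccn4, Akr1c18, Atp1b1 and Plagl1 are 8 genes without a textbook role in helper T cells that were brighter on an array of IL-27-treated CD4+ T cells than on its untreated counterpart. They were chosen by their measured differences between these same 2 arrays, so their direction is a description of that choice and no test bears on it. They are 8 of the 11807 genes on the array, read by 12 of its 18003 probe sets with 1 gene symbol. A probe set is a group of short probes for 1 transcript. The 2 arrays are called the untreated array and the IL-27 array after their labels.

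Both cultures held naive CD4+ T cells of female C57BL/6J mice (spleen and lymph nodes), activated for 60 h by plate-bound antibodies against CD3 and CD28, which stand in for antigen and costimulation. One culture received no cytokine and the other IL-27 (recombinant, murine) at 25 ng/ml. Each group has 1 array, made from 100 ng of total RNA. There is no replicate, so no p-value, standard deviation or standard error is given, and a difference between cultures cannot be told apart from a difference due to the cytokine. The labels do not say how many mice or cultures stood behind each RNA sample, nor the age of the mice.

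IL-27 is a cytokine that acts on T cells through the receptor chains Il27ra and Il6st and passes its signal to the nucleus by STAT transcription factors. Most of the 8 genes are better known from other settings. Ladinin 1, from Lad1, is known from the anchoring filaments that tie epithelia to the basement membrane. Penk encodes proenkephalin, the precursor of the enkephalin opioid peptides, and Ccn4 a secreted matricellular protein of the CCN family that is known as a Wnt target. Phlda1 encodes a pleckstrin homology-like protein induced by T cell receptor signals, Capn3 the calcium-dependent protease calpain 3 of skeletal muscle, and Akr1c18 an aldo-keto reductase that inactivates progesterone. Atp1b1 encodes a beta chain of the sodium pump and Plagl1 a zinc finger transcription factor of an imprinted locus.

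Promoter windows, from 250 bases before to 50 bases after an annotated start, were found in RefSeq (build GRCm38.p6) for 5 of the 8 genes, and Capn3 had 2. The 150 bases before the start of 4 of them are printed 5′ to 3′ because the windows differ in base composition although all 4 genes were chosen for the same direction. Capitals mark a GC box on the reverse strand.

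Lad1, chr1:135818448-135818597, plus strand: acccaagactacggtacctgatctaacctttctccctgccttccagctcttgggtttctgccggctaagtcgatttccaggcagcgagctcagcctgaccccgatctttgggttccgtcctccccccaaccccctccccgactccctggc
Akr1c18, chr13:4150647-4150796, minus strand: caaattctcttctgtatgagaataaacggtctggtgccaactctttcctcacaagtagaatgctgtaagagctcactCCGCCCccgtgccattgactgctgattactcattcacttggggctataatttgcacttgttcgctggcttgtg
Atp1b1, chr1:164458356-164458505, minus strand: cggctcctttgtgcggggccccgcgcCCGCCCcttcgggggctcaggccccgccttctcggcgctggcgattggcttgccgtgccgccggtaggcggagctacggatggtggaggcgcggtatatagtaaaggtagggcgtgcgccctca
Plagl1, chr10:13090682-13090831, plus strand: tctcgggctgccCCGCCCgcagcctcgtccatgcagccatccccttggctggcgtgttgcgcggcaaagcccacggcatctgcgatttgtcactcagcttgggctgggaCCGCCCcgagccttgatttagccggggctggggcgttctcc

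The windows of Atp1b1 and Plagl1 were rich in G and C, at 71.0% and 70.7% over 300 bases, and held 31 and 26 CpG dinucleotides. The median of all 32851 windows was 52.7% and 7 CpG. Lad1 stood at 60.3% with 18 CpG. Akr1c18 lay below the median, at 42.3% with 5 CpG, and the 2 starts of Capn3 had 6 and 4 CpG. The genes thus span CpG-rich and CpG-poor promoters.

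A search of both strands for 8 motifs found 1 of them, the GC box GGGCGG, in the windows of 3 of the 5 genes (Atp1b1, Plagl1 and Akr1c18), and 35.7% of all windows hold it. It lay 73 to 68 bases before the start of Akr1c18 and 41 to 36 as well as 138 to 133 bases before that of Plagl1. Atp1b1 had 1 match at 124 to 119 bases and another at 205 to 200, outside the printed stretch. No match overlapped another. The other motifs were not in these windows. They were the STAT element TTCNNNGAA (8.30% of all windows), the AP-1 element TGANTCA (7.81%), the cAMP response element TGACGTCA (1.79%) and the T-box motif GGTGTGA (3.98%). The TCF/LEF element CTTTGAT (3.73%), the interferon response motif GAAANNGAA (8.56%) and the TATA box TATAAA (13.6%) completed the search. Their absence says only that these letters are not in these windows.

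Values are RMA intensities as deposited, on a linear scale, and a difference is the log2 intensity on the IL-27 array minus that on the untreated array. The table has no detection calls. A background floor was therefore set at an intensity of 24.5 (4.62 on the log2 scale), the 95th percentile of levels measured for 40 off-tissue genes, such as those of liver, pancreas and brain. Where the dimmer array lay below the floor, a fold is given as a lower bound against the floor. Of all genes, 6891 were above it on at least 1 array. Of these, 103 (1.49%) were higher on the IL-27 array by 2-fold or more and 188 (2.73%) were lower by as much. The median difference of all 6891 was 0.02. These counts and those of relatives and neighbours below use measured differences, also where 1 array lay below the floor.

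The direction of every value below rests on the labels, and some known IL-27 targets lay against them. Socs3, a feedback inhibitor of cytokine signalling, had intensities of 1122 and 186 on the untreated and the IL-27 array, and Il21 of 384 and 26.7. Il10 stood at 47.2 and 10.7, at least 1.92-fold lower. Prdm1, which encodes the repressor Blimp-1, stood at 189.8 and 16.5, at least 7.74-fold lower. The same check also held genes within 2-fold. The receptor chain genes Il27ra and Il6st differed by -0.66 and -0.04, and Stat3 by -0.40. Whether the 2 labels were exchanged was not tested and cannot be settled with 1 array per group, and an exchange would turn every direction given here. These genes were chosen after their values were seen. All 11 measured genes of a list of CD4+ T cell markers were above the floor, with summed intensities of 22300 and 20325. Of 6 markers of CD8+ T and NK cells, 3 were above it, with sums of 344 and 251, and the NK receptor genes Klrd1 and Klrk1 were lower on the IL-27 array by at least 4.65-fold and 2.78-fold, while Cd8b1 was 1.48-fold higher there, at 119 and 176. The other 3, Cd8a, Ncr1 and Klrb1c, were below it on both. Of 5 measured B cell markers 1 was above the floor (sums of 65.1 and 71.3), of 12 myeloid markers 2 (213 and 186) and of 7 markers of stroma, endothelium and epithelium 2 (141 and 101). Of these 2, the epithelial marker Epcam was lower on the IL-27 array by at least 2.26-fold and the endothelial marker Pecam1 differed by 1.02-fold. Of the 2 myeloid markers, Cd68 was 1.99-fold lower on the IL-27 array, at 54.9 and 27.5. The other, Csf1r, lay close to the floor at 26.2 and 24.4. Each sum runs over all measured markers of its list, those below the floor included. The part of other cells in the results was not tested. A larger share of expressing cells and more RNA per cell cannot be told apart in bulk RNA.

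All 8 genes were above the floor on the IL-27 array, and 8 of 8 were at least 2-fold higher there, next to 1.49% of all genes. Since this contrast chose them, nothing is read from that count. Their measured differences ran from 1.56 to 4.10 with a median of 2.64. Capn3, Ccn4 and Akr1c18 enter these values with untreated levels below the floor. With dim values raised to the floor, the differences ran from 1.33 to 4.10 with a median of 2.05. In that setting Lad1 had the largest positive difference of all genes above the floor, Penk and Phlda1 took places 5 and 6, and the places of the other 5 ran from 13 for Ccn4 to 50 for Akr1c18.

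**Figure D1:**
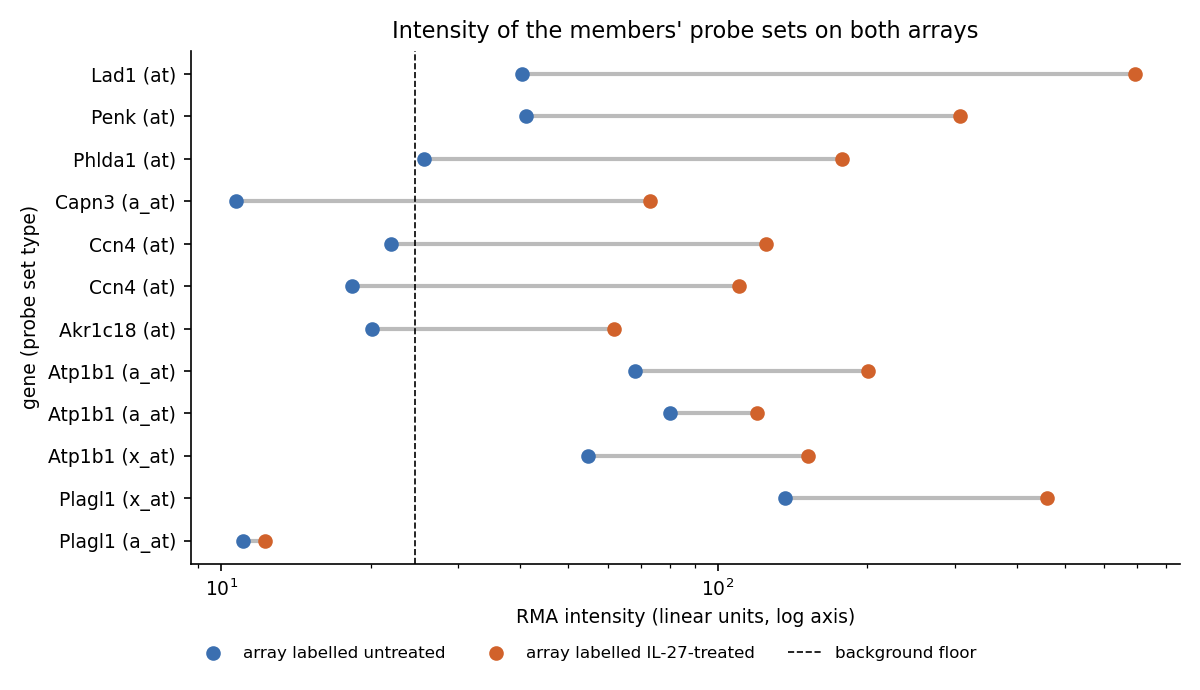
Intensity of each of the 12 probe sets of the 8 genes on the untreated array (blue) and the IL-27 array (orange), on a log axis, with 1 array per group and the floor of 24.5 as a dashed line. Capn3, Ccn4 and Akr1c18 lie below the floor on the untreated array, Phlda1 lies just above it, and 1 probe set of Plagl1 lies below it on both.

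Of the secreted products, Penk was read by 1 probe set (1427038_at), at an intensity of 41.0 on the untreated and 307 on the IL-27 array. It was above the floor on both, and the difference of 2.91 corresponds to 7.50-fold. Ccn4 was read by 2 probe sets (1448593_at and 1448594_at). The first gave 22.0 and 125, the second 18.3 and 110.1. Both were below the floor on the untreated array and clearly above it on the other. Their measured differences were 2.51 and 2.59, and the folds at least 5.10 and at least 4.49. Because both untreated values are below the floor, the nearness of the 2 differences gives no measure of error.

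Lad1 (1418449_at) had intensities of 40.4 and 692, a difference of 4.10 or 17.1-fold. It was dim but above the floor on the untreated array, at 1.65 times its value. Phlda1 (1418835_at) stood at 25.6 and 178, a difference of 2.80 or 6.96-fold. Its untreated value was only 1.04 times the floor, so this fold rests on a level that can hardly be told from background.

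Of the enzymes, Capn3 (1426043_a_at) had intensities of 10.7 and 73.2. The untreated value was well below the floor, and the level on the other array was 2.98 times the floor. The gene was thus at least 2.98-fold higher, while the measured difference was 2.78. Akr1c18 (1419136_at) had intensities of 20.1 and 61.8, at least 2.52-fold higher, with a measured difference of 1.62. It was the dimmest of the 8 relative to the floor on the IL-27 array.

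Atp1b1 was above the floor on both arrays by all 3 of its probe sets. The brightest by mean log2 level (1418453_a_at) gave 68.1 and 201, a difference of 1.56 or 2.95-fold. The probe set 1423890_x_at, of a type whose probes can also bind other transcripts, gave 54.7 and 152, a difference of 1.48. The third, 1451152_a_at, was the brightest on the untreated array and gave 80.1 and 120.2, a difference of 0.58. All 3 were higher on the same array, but their range of 0.98 exceeded 0.64, the 95th percentile of such ranges over the 2245 genes with several probe sets above the floor. The size of the difference therefore depends on which probe set is read. Ranges were wider among genes at least 2-fold higher, with a median of 0.37 over 27 such genes, next to 0.21 over the 2245.

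Plagl1 had a bright and a dim probe set. The bright one (1426208_x_at) gave 137 and 461, a difference of 1.76 or 3.38-fold. Its suffix _x_at marks probes that can also bind other transcripts. The other, 1450533_a_at, gave 11.1 and 12.3, below the floor on both arrays, and so offers no second reading. Among the 8 genes, 5 had a single probe set, so that Ccn4 and Atp1b1 were the members with more than 1 probe set above the floor.

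**Figure D2:**
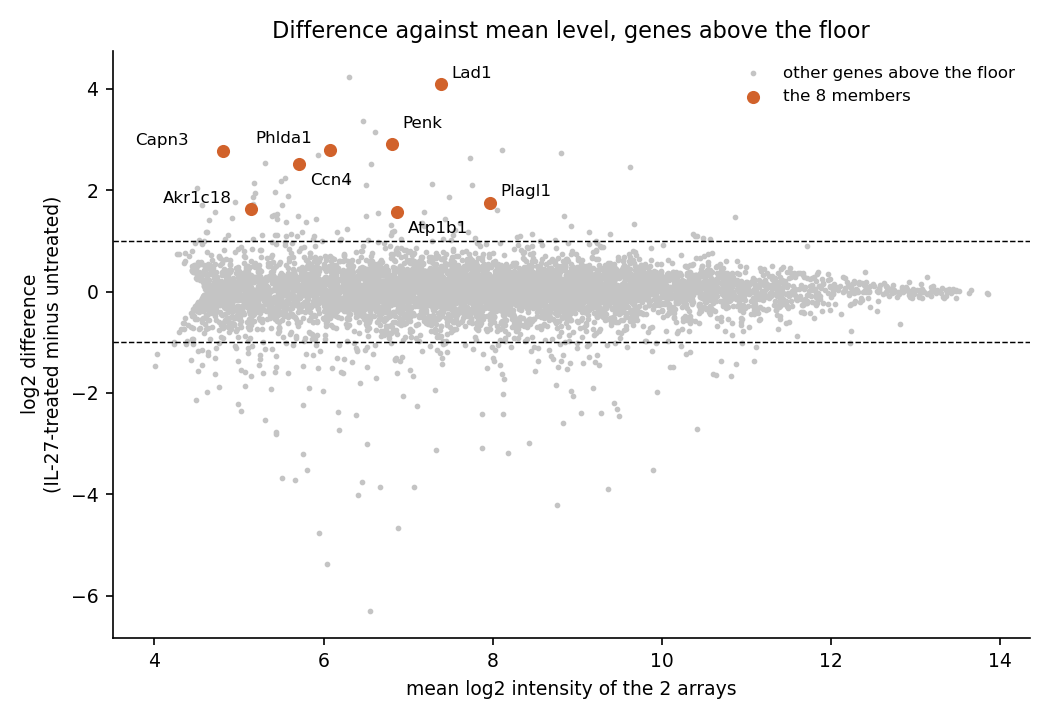
Each point is a gene above the floor, with its mean log2 intensity over the 2 arrays on the x axis and its log2 difference on the y axis; dashed lines mark 2-fold, and the 8 members are orange. The members lie between 1.56 and 4.10, away from the bulk of genes, whose quartiles are -0.20 and 0.22.

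The genes whose pair of intensities came closest to each member's were found by the distance in the 2 log2 levels, over 2 arrays, and a small distance says nothing of shared control. For Atp1b1 this was Pter (69.3 and 206), at a distance of 0.05, and for Akr1c18 the chemokine receptor gene Ccr8 (19.7 and 65.2), at 0.08. Marcksl1 (152 and 460) was closest to Plagl1, at 0.15. The cytokine gene Csf2 (24.0 and 155) was closest to Phlda1 at 0.22, Ifi203 (21.4 and 101) to Ccn4 at 0.31 and the T-box factor gene Eomes (32.8 and 290) to Penk at 0.33. Gucy1b1 lay 0.67 from Capn3. Lad1 stood most alone, with the nearest gene, Trat1 (85.6 and 531), at a distance of 1.15. It is also the member with the largest difference, the value by which members were chosen. The distances use measured levels, also those below the floor. On the untreated array these were Capn3, Ccn4, Akr1c18, Gucy1b1, Ifi203, Ccr8 and Csf2, so their distances rest partly on background.

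Relatives of the 8 genes were taken from lists of their families and pathways. The members were chosen for their differences on these same arrays and the relatives were not. A gap between members and relatives was therefore set by that choice, and nothing is read from it. Of 126 relatives measured, 53 were above the floor on at least 1 array, 3 of them higher by 2-fold or more (5.66%) and 3 lower (5.66%), with a median of 0.03. Of the 3 lower, Fxyd7 is counted by its measured difference, as its level on the IL-27 array lay below the floor. The shares over all genes were 1.49% and 2.73% and their median 0.02. With counts of 3, these shares describe the list and set it apart from nothing.

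**Figure D3:**
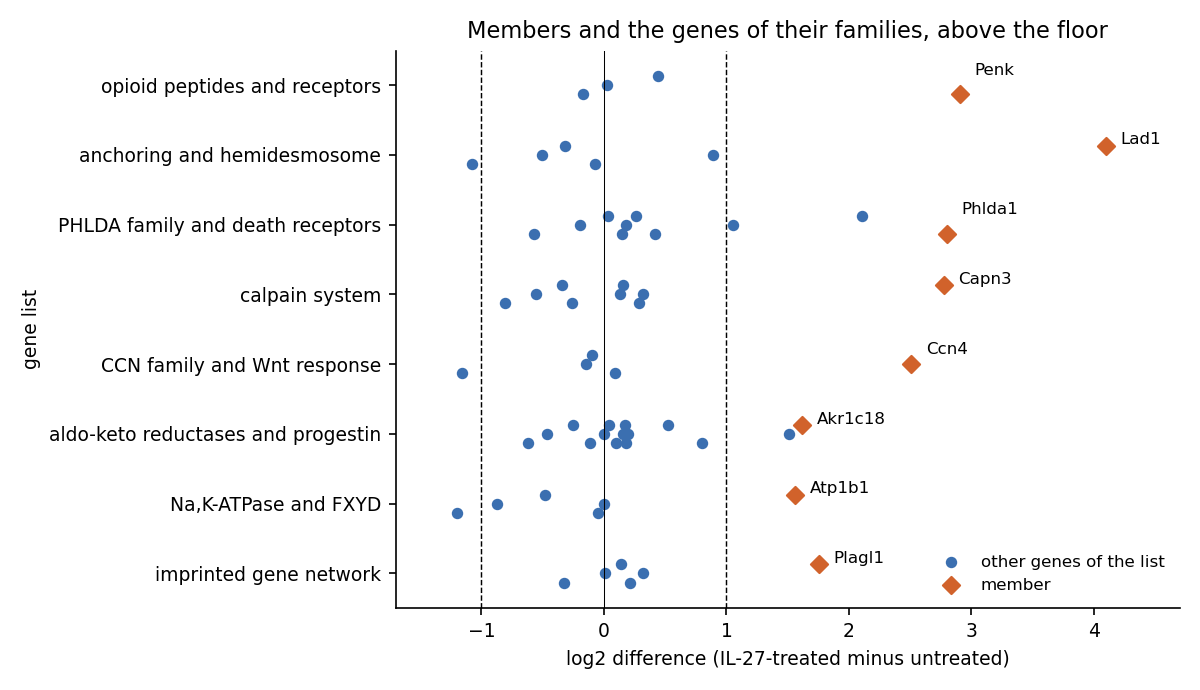
Log2 differences of the genes above the floor in each of 8 family lists, members as orange diamonds and other genes as blue points (vertical offsets only separate points), with dashed lines at 2-fold. Each member stands to the right of every other gene of its list, but the members were chosen by this difference. Most of the other genes lie within 2-fold of 0, and Akr1c12 at 1.51 comes closest to its member, Akr1c18 at 1.62.

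In the opioid system, 18 of 20 listed genes were measured and 4, Penk among them, were above the floor. The other 3 precursor genes, Pomc, Pdyn and Pnoc, and all 4 opioid receptor genes were below it on both arrays. The convertase gene Furin, which cuts many precursor proteins, had intensities of 109 and 148, a difference of 0.44. The peptidase genes Dpp3 and Ece1 differed by -0.17 and 0.03. The remaining 5 processing genes, including those of the neuroendocrine convertase Pcsk1 and the carboxypeptidase Cpe, were below the floor, all at 14.0 or less. Transcripts of Penk were thus measured without those of the known opioid receptors being above background.

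Around Ccn4, the 4 other CCN genes measured were below the floor on both arrays, at most at an intensity of 20.9. The same held for 7 Wnt feedback and target genes, Axin2 among them, at most at 20.7. Of the 4 relatives above the floor, the Wnt receptor gene Fzd7 was 2.23-fold lower, at 125 and 56.1, and dim by its other probe set, with 13.8 and 13.6. The Wnt effector genes Ctnnb1 and Lef1 differed by -0.14 and 0.09 and the coreceptor gene Lrp6 by -0.10. Ccn4 was the only gene of this list above the floor and at least 2-fold higher.

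The hemidesmosome list of Lad1 had 5 other genes above the floor, with a median of -0.32. Laminin-332 chains Lama3 and Lamb3, and all 5 collagen and keratin genes of the list, were below it on both arrays. The integrin gene Itga6, a laminin receptor chain that T cells use for migration, had intensities of 260 and 483, a difference of 0.89, and 0.93 by its other probe set. The cytoskeletal linkers Dst and Plec lay on the other side. Dst stood at 51.8 and 24.6, a 2.11-fold difference that ends at the floor, and Plec differed by -0.50. The tetraspanin gene Cd151 differed by -0.32 by an _x_at probe set, while its other probe sets above the floor gave 0.22 and -0.01. That first value is also the median of the list, which was -0.12 when the probe sets of each gene were averaged.

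Phlda1 was not the only PHLDA gene with a difference. Phlda3, a p53-inducible inhibitor of Akt signalling, had intensities of 153 and 318, a difference of 1.05 or 2.07-fold, while Phlda2 was below the floor on both arrays. Fasl, the death ligand of activated T cells, was listed because Phlda1 has been linked to Fas expression in T cells. It stood at 104 and 450, a difference of 2.11, with 2.15 by its other probe set. The gene of its receptor, Fas, differed by 0.15. The proapoptotic gene Bcl2l11 differed by -0.57 and the death receptor adaptor gene Fadd by 0.42. Bbc3, which encodes the proapoptotic protein Puma, differed by 0.26. Over the 9 relatives above the floor the median was 0.18.

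In the calpain system, the ubiquitous proteases lay opposite to Capn3. Capn2 had intensities of 654 and 374, a difference of -0.81, and Capn1 of 148 and 101, a difference of -0.55, with -0.16 by its dimmer probe set. The inhibitor gene Cast differed by -0.34 and by -0.76 by its other probe set, and the shared small subunit gene Capns1 by -0.26. The other 4 relatives above the floor, Capn7, Capn10, Capn15 and Capn5, lay between 0.13 and 0.32. Capn5 was below the floor on the untreated array and so was at least 1.07-fold higher. Capn15 was read by an _x_at probe set at 0.29, and its other probe sets above the floor gave -0.02 and -0.13. Of the 8 relatives, 0 were at least 2-fold apart in either direction.

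Akr1c18 shared its direction with the neighbouring aldo-keto reductase genes Akr1c12 and Akr1c13. Akr1c12 had intensities of 25.3 and 72.0 by a probe set of the type _s_at, whose probes are shared by several transcripts, a difference of 1.51. Its other probe set, of the type _at, gave 18.0 and 19.9, below the floor on both arrays. Akr1c13 went from 16.4, below the floor, to 28.7, at least 1.17-fold higher. The 3 genes are close relatives, so how much of each signal is its own cannot be told from these probe sets. Akr1c14, Akr1c20 and Akr1c6 were below the floor on both arrays, at most at 10.9. Elsewhere in the list, Akr1b8 differed by -0.62 and the progesterone-binding membrane protein gene Pgrmc1 by 0.53, and the progesterone receptor gene Pgr was below the floor on both arrays.

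Atp1b1 and the other sodium pump beta chain gene above the floor gave unlike values. Atp1b3 had intensities of 2394 and 2314, a difference of -0.05, while Atp1b2 and Atp1b4 were below the floor on both arrays. The alpha chains are not analysed here. Among the FXYD genes, whose small membrane proteins tune the pump, 3 of 7 were above the floor and all 3 lay on the lower side. Fxyd5 had intensities of 4203 and 2289, a difference of -0.88, Fxyd7 was at least 1.53-fold lower and Fxyd3 at least 1.06-fold lower. The measured difference of Fxyd7 was -1.20.

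The list of Plagl1 held imprinted genes and relatives of the PLAG family. Of that family, the paralogue Plagl2 had intensities of 395 and 492, a difference of 0.32, and Plag1 was below the floor on both arrays. Of the 23 genes of the list measured, 6 were above the floor, Plagl1 among them. Among the imprinted genes, the cell cycle inhibitor gene Cdkn1c differed by -0.33 and stood close to the floor at 31.8 and 25.4. The splicing protein gene Snrpn differed by 0.21. Igf2, Dlk1, Meg3 and Grb10 did not exceed the floor on either array.

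Genes beside the members on the chromosome were looked up in RefSeq gene order, a step chosen after the members' values were seen. Of the 3 nearest measured coding genes on each side of each member, 48 in all, 31 were above the floor. Of these, 4 were at least 2-fold higher, 1 was at least 2-fold lower and 26 were within 2-fold, with a median of 0.24. The shares were 12.9% and 3.23%, next to 1.49% and 2.73% of all genes above the floor, whose median was 0.02; with counts of 4 and 1 they are given as a description of these neighbours. Akr1c12 was 1 of the 4, near Akr1c18, by the _s_at probe set whose signal cannot be told apart from that of its close relatives. Of the other 3, 2 stood in a row beside Lad1. Tnni1, which encodes slow skeletal troponin I, is the coding gene next to it and had intensities of 24.8 and 91.4, a difference of 1.88, though its untreated value lay at the floor. Phlda3, described above, is the next one on. Akr1c12 and Phlda3 were also counted among the higher relatives, so the counts of relatives and neighbours overlap. The genes beyond this row were within 2-fold, with Csrp1 at 0.23 on the one side and Tmem9 at -0.15 on the other, and Tnnt2 and Pkp1 below the floor. Beside Phlda1, Glipr1, the second coding gene after it, had intensities of 310 and 762, a difference of 1.30, whereas Krr1 between them differed by 0.26.

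Next to Ccn4 lay the 1 neighbour in the other direction. Ndrg1, a stress-responsive gene whose probe set is of the type _s_at, had intensities of 1123 and 301, a difference of -1.90. On its other side Ccn4 adjoined Sla, a T cell adaptor gene, at 0.03. The neighbours of Penk, Capn3, Atp1b1 and Plagl1 were within 2-fold or too dim to be above the floor.

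**Figure D4:**
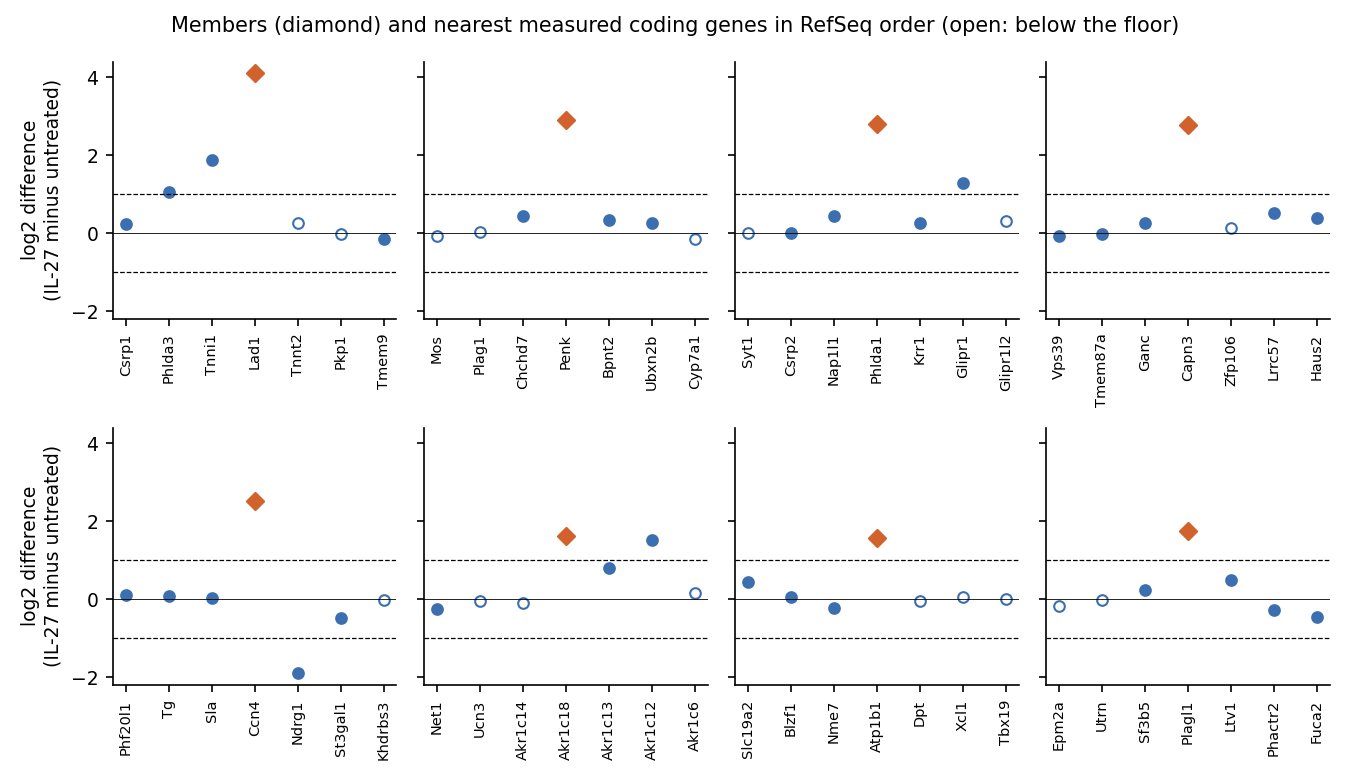
Log2 difference of each member (orange diamond) and of the 3 nearest measured coding genes on each side in RefSeq order (blue, open where below the floor on both arrays), with dashed lines at 2-fold. Tnni1 (1.88) and Phlda3 (1.05) beside Lad1 and Akr1c12 (1.51) near Akr1c18 lie above the 2-fold line, as does Glipr1 (1.30) near Phlda1, and Ndrg1 (-1.90) beside Ccn4 lies below the lower one.

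The members' differences moved little with normalization but more with the treatment of dim values. Across 6 other settings, Lad1 ranged from 3.65 to 4.13 and Penk from 2.50 to 2.94. Capn3 ranged from 1.58 to 2.81 and Ccn4 from 1.89 to 2.55. The difference of Plagl1 was 0.95 when its 2 probe sets were averaged, short of 2-fold, and that of Atp1b1 was 1.21.

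**Figure D5:**
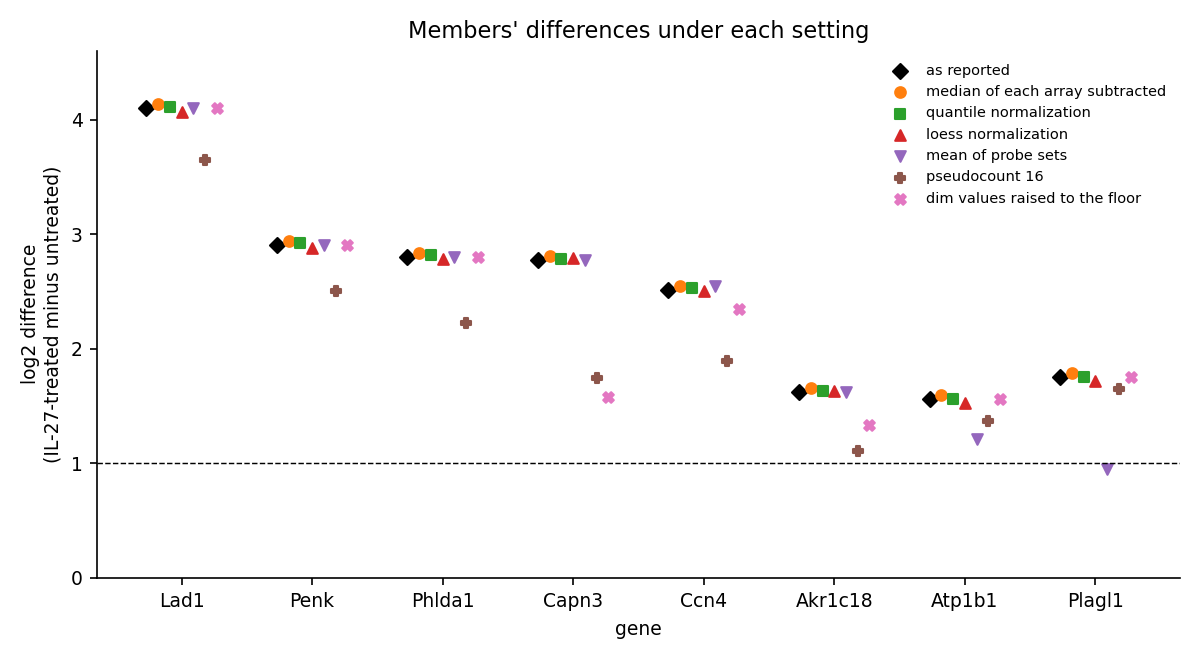
Log2 difference of each member as reported (black diamond) and under 6 alternative settings, with 2-fold as a dashed line. All values are above 0; the mean of probe sets puts Plagl1 at 0.95, and a pseudocount of 16 or dim values raised to the floor lower Capn3 to 1.74 and 1.58.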

How the data were processed

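RNA of 2 cultures was read on 1 array each. The deposited values are intensities per probe set on a linear scale, made by the authors with RMA (background subtraction, quantile normalization, probe set summary), per the submitters' processing notes; the version is not given in the sources used here, and the linear scale was read from the values. RMA makes intensity distributions nearly alike, hides changes in total RNA and compresses differences of dim probe sets.

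Of 22716 probe sets, the platform annotation gives 18003 a single symbol, 287 several and 4426 none; none of the 287 listed a member. Log2 intensities were compared without a pseudocount or further normalization (Python 3.11.15, pandas 2.3.3). Of several probe sets, the one with the highest mean log2 intensity stood for the gene. The floor is the 95th percentile over 40 measured of 48 listed off-tissue genes. Named are the members, in each family list the genes at least 2-fold apart and the 3 others with the largest difference, and the gene nearest to each member; further genes, among them the neighbours, the label check and undetected relatives, were chosen after their values were seen. The members and lists were chosen with earlier results of these data known. Protein sequences planned for description were not used here. The procedure was tested on simulated data. Differences were planted there only in genes with a mean level well above the floor. That test therefore does not cover genes as dim as Capn3 and Akr1c18. Having 1 array per group limits precision throughout.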

Additional observations from a re-analysis of the deposited data

How the results depend on the processing

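The count of 8 members at least 2-fold higher was 7 with the mean of probe sets, which left out Plagl1, and 5 when genes had to be above the floor on both arrays, a filter that removes Capn3, Ccn4 and Akr1c18 by construction. It was 8 under the other 8 settings: subtraction of each array's median, quantile and loess normalization, a pseudocount of 16, dim values raised to the floor, no filter, and a floor at the 90th or 99th percentile. The genes at least 2-fold higher numbered 73 to 113 over all settings and those at least 2-fold lower 137 to 197, within 1.5 times of the reported 103 and 188. With no filter, the medians of the relatives in the hemidesmosome and sodium pump lists were -0.11 and -0.16 in place of -0.32 and -0.48. With the mean of probe sets that of the calpain relatives was -0.31 in place of -0.07, and the cause was not tested. The medians of the calpain and opioid relatives, near 0, changed sign without a filter, to 0.13 and -0.01. No paired analysis was possible because each group has 1 array. Dim values limit Capn3, Ccn4, Akr1c18 and Phlda1 most, and variation between cultures was not measured.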
